A study of Mus musculus with 8 samples.

Results

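Matrix metalloproteinases and their tissue inhibitors were examined in mouse leukemic cells treated with EPZ4777, which blocks the histone methyltransferase DOT1L. The set held 9 genes: Mmp8, Mmp9, Mmp12, Mmp13, Mmp14, Mmp19, Mmp25, Timp1 and Timp2. A gene was represented by the probe sets that the array's annotation gives exactly its own symbol, and of these the one with the highest mean log2 intensity over the 8 arrays was its main row. Of the 9 genes, 8 had such a row among the 18193 genes of the array, with 17 probe sets between them, and Mmp25 was not analysed here.

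The samples were total RNA of cultured murine cells transformed by MLL-AF9, a fusion oncoprotein of acute myeloid leukemia, each on 1 Affymetrix array. There were 4 groups of 2 arrays: cells labelled shSirt1 after 21 days in 3 µM EPZ4777, cells labelled shSirt1 in DMSO, shLUC cells after 6 days in 3 µM EPZ4777, and shLUC cells in DMSO. The hairpin shLUC is directed against luciferase and shSirt1 against the deacetylase gene Sirt1. All groups carried MLL-AF9 and a hairpin and grew with serum, SCF, IL-3 and IL-6. The titles also hold a code, A1 or A5 for shSirt1 and A4 or D11 for shLUC, which occurs once in EPZ4777 and once in DMSO. The sources used here do not give what a code stands for or whether it is a clone. The DMSO arrays have no day in the labels, so drug and time in culture cannot be told apart, nor can hairpin and days in EPZ4777. Nothing in the labels gives the arrays of a group separate cultures, so the p-values cover no more than array-to-array spread within these groups, and this may be technical.

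The arrays had median log2 intensities between 5.21 and 5.27. Sirt1 in the A1 arrays was at 57.3% of the shLUC mean in EPZ4777 and 56.5% in DMSO, and in the A5 arrays at 105% in EPZ4777 and 102% in DMSO. The hairpin is therefore used here as a label only. The summed intensity of 12 neutrophil markers was 12038 to 142279 over the arrays, and that of 15 macrophage markers 1533 to 14217, as described with the members below. The summed intensity of 5 lymphocyte markers stayed between 94.7 and 116 on all arrays. Of 10 stromal markers, 6 were highest in the A1 array in DMSO (Col1a2, Col3a1, Dcn, Lum, Postn and Fap), with Col3a1 at 6.92 against at most 3.13 elsewhere and Dcn at 7.27 against at most 4.79. The other 4, Col1a1, Pdgfra, Pdgfrb and Acta2, were not highest there. The summed intensity of the 10 was 737 to 773 in EPZ4777 and 476 to 841 in DMSO in cells labelled shSirt1, and 706 to 779 in EPZ4777 and 499 to 518 in DMSO in shLUC cells.

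Matrix metalloproteinases are zinc endopeptidases that are made as inactive proenzymes and cut collagens, elastin and other proteins outside the cell. Neutrophils store MMP8, the neutrophil collagenase, and MMP9, gelatinase B, in granules formed late in maturation, while MMP12, the macrophage elastase, is a product of macrophages. TIMP proteins bind the active site and block it, and TIMP2 also takes part in the activation of pro-MMP2 by the membrane-anchored MMP14. In mice Mmp8, Mmp12 and Mmp13 lie in 1 cluster of metalloproteinase genes on chromosome 9.

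The promoters of the 3 cluster genes are shown because these neighbours gave 3 different patterns over the codes. The sequences are those of RefSeq on GRCm38.p6, on the + strand, 250 bases before to 50 bases after the annotated start. Capitals mark matches to 5 motifs searched on both strands: TGANTCA (AP-1), AGGAAG (PEA3, bound by ETS factors), TATAAA (the TATA box), TTGCNNAA (C/EBP) and TGACAG (MEIS). No matches overlapped each other. The Mmp12 promoter is that of the second of 2 annotated starts, at chr9:7347124-7347423, the Mmp13 promoter lies at chr9:7272264-7272563 and the Mmp8 promoter at chr9:7558179-7558478.
Mmp12: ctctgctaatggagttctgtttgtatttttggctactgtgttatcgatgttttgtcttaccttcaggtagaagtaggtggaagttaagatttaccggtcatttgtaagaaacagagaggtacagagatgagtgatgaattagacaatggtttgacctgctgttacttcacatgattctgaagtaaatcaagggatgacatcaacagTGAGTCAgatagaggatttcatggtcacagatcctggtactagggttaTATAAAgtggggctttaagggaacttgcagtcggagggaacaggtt
Mmp13: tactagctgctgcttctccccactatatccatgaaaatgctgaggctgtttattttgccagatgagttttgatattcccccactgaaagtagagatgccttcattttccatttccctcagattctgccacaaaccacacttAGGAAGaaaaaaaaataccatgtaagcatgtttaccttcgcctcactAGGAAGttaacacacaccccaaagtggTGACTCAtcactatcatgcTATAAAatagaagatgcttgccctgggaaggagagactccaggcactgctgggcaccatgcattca
Mmp8: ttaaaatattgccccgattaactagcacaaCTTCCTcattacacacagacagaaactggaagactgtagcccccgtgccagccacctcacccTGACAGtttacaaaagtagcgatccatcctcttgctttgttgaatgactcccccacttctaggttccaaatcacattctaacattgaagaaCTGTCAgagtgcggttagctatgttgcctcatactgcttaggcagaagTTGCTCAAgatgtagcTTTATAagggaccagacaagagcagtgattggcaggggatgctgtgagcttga
The AP-1 letters began 44 bases before the start in Mmp12 and 35 before it in Mmp13. They were found in these 2 of the 7 members whose promoter was listed, and in 7.81% of 32851 promoters of the same length. The first Mmp12 start, at chr9:7344147-7344446 and not printed, held no AP-1 or TATA letters, but PEA3 letters 87 bases and C/EBP letters 39 bases before it. The Mmp13 window also held 2 PEA3 matches, 109 and 62 bases before the start, and a TATA box 16 bases before it. The Mmp8 window held MEIS letters 158 and 67 bases before the start and C/EBP letters 19 bases before it. The TATA letters of Mmp12 began after the annotated start, at base 5, and those of Mmp8 began 3 bases before it on the other strand. PEA3 letters occurred in 6 of the 7 members and in 35.4% of all promoters, and TATA letters in 3 and in 13.6%. The member counts take both Mmp12 starts together, whereas the percentages are per promoter. C/EBP letters occurred in 2 members and in 10.8% of all promoters, and MEIS letters in 1 and in 19.2%. The Timp2 window held none of the 5 motifs. A match describes the letters only, and binding was not measured.

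Across the 4 codes the signs differed among members of the family. The EPZ4777 minus DMSO difference was above 0 in every code for Mmp8, Mmp9, Mmp12 and Timp2, which is 4 of 8 members, against 18.7% of all genes. It was below 0 in every code for Mmp19 and Timp1, 2 of 8, against 19.6% of all genes. Mmp13 and Mmp14 had a positive difference in both shLUC codes and a negative one in both codes labelled shSirt1, a pattern held by 5.3% of all genes. No member had all 4 EPZ4777 arrays above all 4 DMSO arrays, where 8.05% of all genes did. Within an arm, both EPZ4777 arrays lay above both DMSO arrays for 1 of 8 members in cells labelled shSirt1 (Timp2, 26% of all genes) and for 5 of 8 in shLUC cells (Mmp8, Mmp12, Mmp13, Mmp14 and Timp2, 24.2% of all genes).

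**Figure D1:**
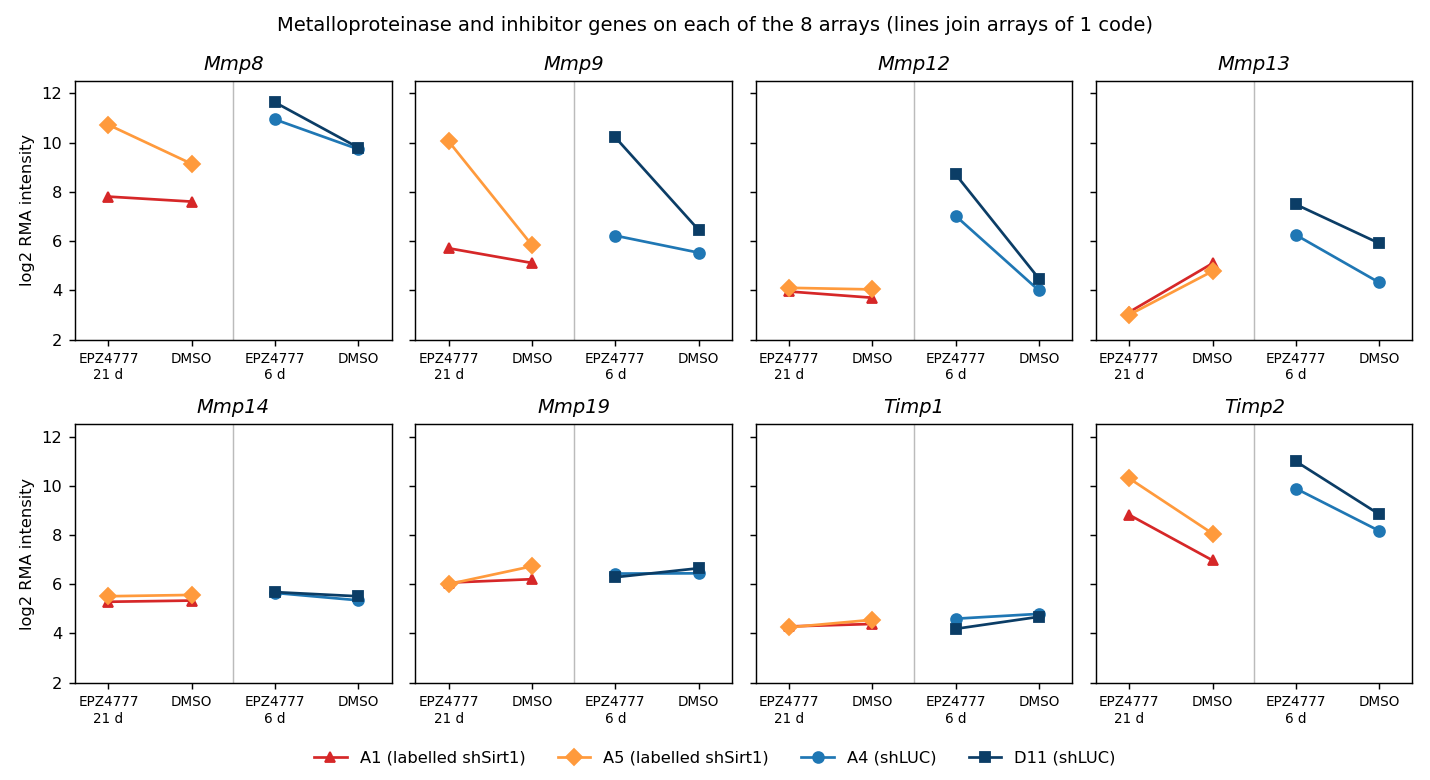
Log2 RMA intensity (y axis) of the 8 measured genes on each of the 8 arrays, with lines joining the EPZ4777 and DMSO arrays of a code and shSirt1 codes left of shLUC codes in each panel. Mmp12 reached 7.02 and 8.71 in EPZ4777 on the shLUC arrays and stayed at or under 4.48 on all others, and the lines of Mmp13 slope in opposite directions in the 2 arms.

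Differences are given as log2 EPZ4777 minus DMSO ± standard error, with 2 arrays in each group, and limma p-values are adjusted over all 18193 genes and a threshold of 0.05. A second fit took the code as a block, and its adjusted p-value is named as blocked. In cells labelled shSirt1, 0 of 8 members passed in limma, where 0.396% of all genes passed. There 3 of 8 had an unadjusted p under 0.05, against 15.8% of all genes. With the block, Timp2 passed as higher and Mmp13 as lower, where 1.31% and 0.907% of all genes passed in those directions. In shLUC cells, 1 of 8 members passed, Mmp12, as higher, where 1.62% of all genes did. With the block, 3 of 8 passed as higher, Mmp12, Mmp13 and Timp2, where 3.63% of all genes did. Averaged over both hairpins, 2 of 8 passed as higher, Mmp12 and Timp2, against 4.88% of all genes, and with the block Mmp8 passed too, making 3 of 8 against 7.49%. The median difference of the 8 members was 0.054 in cells labelled shSirt1 and 1.64 in shLUC cells, against 0.011 and -0.0025 over all genes.

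Of the neutrophil types, Mmp8 had an intensity of 7.81 (A1) and 10.72 (A5) in EPZ4777, against 7.60 and 9.14 in DMSO, in cells labelled shSirt1. In shLUC cells it was 10.94 (A4) and 11.63 (D11) in EPZ4777, against 9.73 and 9.80 in DMSO. Both A1 arrays were low and close to each other, while each EPZ4777 array of the other 3 codes lay above its own DMSO array by 1.21 to 1.84. The groups overlapped in cells labelled shSirt1 and did not in shLUC cells. The difference was 0.89 ± 0.90 in cells labelled shSirt1 (adjusted p = 0.662) and 1.52 ± 0.90 in shLUC cells (adjusted p = 0.401), neither past the threshold. The average over both hairpins was 1.21 ± 0.64 (adjusted p = 0.281), and it passed as higher with the block (blocked adjusted p = 0.0337).

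Mmp9, gelatinase B, was split by code and not by hairpin. It had 5.71 (A1) and 10.05 (A5) in EPZ4777, against 5.11 and 5.83 in DMSO, in cells labelled shSirt1. In shLUC cells it had 6.22 (A4) and 10.21 (D11) in EPZ4777, against 5.53 and 6.46 in DMSO. The A5 and D11 arrays in EPZ4777 were far above all others, with differences of 4.21 and 3.76, whereas A1 and A4 had 0.60 and 0.69. A second Mmp9 probe set gave the same order of large and small codes, at 3.35 in A5, 3.06 in D11, 0.81 in A1 and 0.38 in A4. With codes this far apart, the average of 2.31 ± 1.14 did not pass (adjusted p = 0.246, blocked adjusted p = 0.0959), and its 95% interval reached down to -0.37. The other neutrophil type, the membrane-anchored Mmp25, was not analysed here.

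Among the macrophage types, Mmp12 was the member with the largest difference in the shLUC arm. Its intensity was 7.02 (A4) and 8.71 (D11) in EPZ4777, against 3.996 and 4.48 in DMSO, in shLUC cells. In cells labelled shSirt1 it was 3.95 (A1) and 4.10 (A5) in EPZ4777, against 3.70 and 4.04 in DMSO. The shLUC arrays in EPZ4777 stood above the others by more than 2 log2 units, and the other 6 arrays lay within 3.70 to 4.48, near the lower quartile of the arrays at 3.75 to 3.84. Mmp12 rose by 3.63 ± 0.49 in shLUC cells (adjusted p = 0.0290), and no fold is given because the DMSO values are so near the floor. In cells labelled shSirt1 the difference was 0.16 ± 0.49 (adjusted p = 0.901), with a 95% interval from -0.99 to 1.31. The rise averaged 1.90 ± 0.35 over both hairpins (adjusted p = 0.0237), with 0.25 and 0.065 in the shSirt1 codes. That averaged call was lost without either shLUC DMSO array, the A1 DMSO array or the A5 EPZ4777 array (adjusted p from 0.0574 to 0.104). The call in shLUC cells was lost without the DMSO array of A4 (adjusted p = 0.220) or D11 (adjusted p = 0.197) and without the EPZ4777 array of D11 (adjusted p = 0.0648), with a difference of at least 2.79 in each case.

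Mmp13, collagenase 3, had opposite signs in the 2 arms. In cells labelled shSirt1 it was 3.12 (A1) and 3.01 (A5) in EPZ4777, against 5.10 and 4.78 in DMSO. In shLUC cells it was 6.25 (A4) and 7.49 (D11) in EPZ4777, against 4.32 and 5.91 in DMSO. The EPZ4777 arrays did not overlap the DMSO arrays in either arm, being below them in cells labelled shSirt1 and above them in shLUC cells. The difference was -1.87 ± 0.55 in cells labelled shSirt1 (adjusted p = 0.206, blocked adjusted p = 0.0123). In shLUC cells it was 1.75 ± 0.55 (adjusted p = 0.121, blocked adjusted p = 0.0159). The average over both hairpins was therefore near 0, at -0.060 ± 0.39 (adjusted p = 0.948). The EPZ4777 values in cells labelled shSirt1 lay below the lower quartile of the arrays, and no detection calls were used, so the size of that difference is read against the floor of the arrays. The codes gave -1.98 (A1) and -1.77 (A5), and with both A1 arrays left out the difference was -1.77 (adjusted p = 0.419).

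Mmp14, which is anchored in the membrane, and Mmp19 showed differences under 1 log2 unit throughout. Mmp14 had differences of -0.049 (A1), -0.053 (A5), 0.30 (A4) and 0.17 (D11) on its main probe set, and its intensities spanned only 5.29 to 5.68 on the 8 arrays. The other 2 Mmp14 probe sets did not share those signs, so no direction is given for it. Mmp19 had 6.07 (A1) and 6.01 (A5) in EPZ4777, against 6.21 and 6.73 in DMSO, in cells labelled shSirt1, and 6.43 (A4) and 6.29 (D11) in EPZ4777, against 6.44 and 6.65 in DMSO, in shLUC cells. Every code was lower in EPZ4777 on both Mmp19 probe sets, by as little as 0.0099 in A4. The averaged difference of -0.31 ± 0.13 did not pass (adjusted p = 0.176).

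The inhibitors differed from each other. Timp2 had 8.82 (A1) and 10.30 (A5) in EPZ4777, against 6.97 and 8.06 in DMSO, in cells labelled shSirt1. In shLUC cells it had 9.89 (A4) and 10.99 (D11) in EPZ4777, against 8.17 and 8.84 in DMSO. It was the only member whose EPZ4777 arrays lay above the DMSO arrays in both arms, and its 4 codes were alike, at 1.85 (A1), 2.24 (A5), 1.72 (A4) and 2.15 (D11). Timp2 rose by 1.99 ± 0.43 over both hairpins, 3.97-fold (adjusted p = 0.0347, blocked adjusted p = 0.00351). Within an arm it was 2.04 ± 0.61 in cells labelled shSirt1 (adjusted p = 0.206, blocked adjusted p = 0.0139) and 1.93 ± 0.61 in shLUC cells (adjusted p = 0.120, blocked adjusted p = 0.0180). The averaged call was lost without any of 5 arrays, with adjusted p-values from 0.0791 to 0.131 and differences from 1.62 to 2.16. Those arrays were both shLUC DMSO arrays, the D11 and A5 EPZ4777 arrays and the A1 DMSO array.

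Timp2 was measured by 6 probe sets. The 4 with the highest mean intensity had differences from 0.52 to 2.24 in every code, and the 2 dimmest, near the floor of the arrays, did not have the same sign in all codes. In limma over all probe sets, the 2 brightest passed averaged over both hairpins (adjusted p = 0.0368 and 0.0407). The other 4 did not (adjusted p from 0.0552 to 0.873). Timp1, by contrast, was lower in EPZ4777 in each code by 0.10 to 0.49. Its intensity was 4.29 (A1) and 4.25 (A5) in EPZ4777, against 4.39 and 4.56 in DMSO, in cells labelled shSirt1, and 4.60 (A4) and 4.19 (D11) in EPZ4777, against 4.80 and 4.68 in DMSO, in shLUC cells. The EPZ4777 arrays lay below the DMSO arrays in both arms, and the average of -0.27 ± 0.11 did not pass (adjusted p = 0.161).

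**Figure D2:**
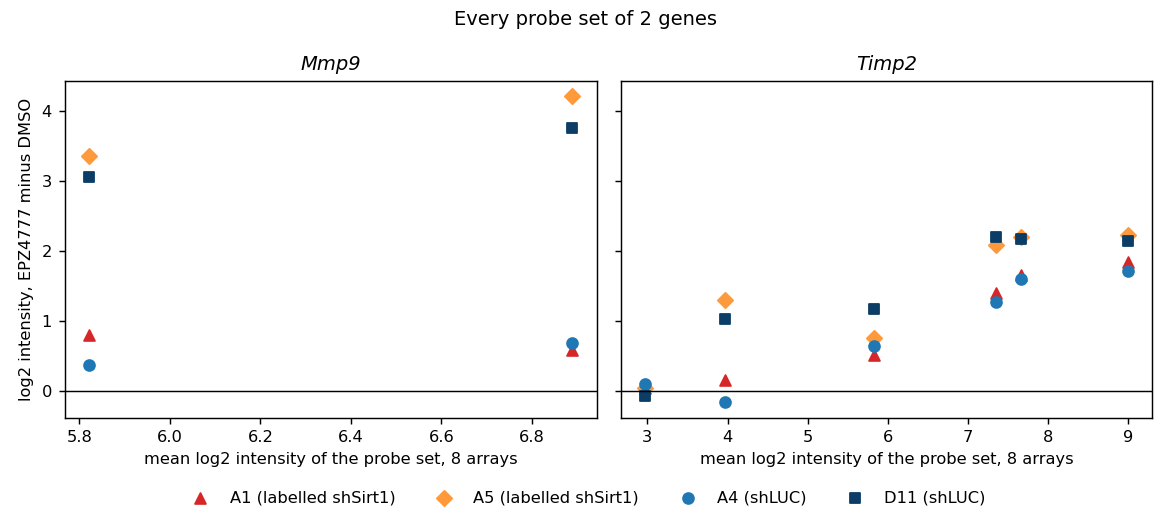
EPZ4777 minus DMSO log2 difference (y axis) of every probe set of Mmp9 and Timp2 against the mean log2 intensity of that probe set over the 8 arrays (x axis), 1 point per code. A5 and D11 stand above A1 and A4 on both Mmp9 probe sets, and the 4 brightest Timp2 probe sets are above 0 in all 4 codes.

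The mean difference of the macrophage types (Mmp12, Mmp13, Mmp14 and Mmp19) was set beside that of the neutrophil types (Mmp8 and Mmp9) in each code, as a description with no test. The macrophage types averaged -0.48 in A1 and -0.62 in A5, and 1.31 in A4 and 1.40 in D11, so that they split by hairpin label. The neutrophil types averaged 0.40 in A1, 2.90 in A5, 0.95 in A4 and 2.80 in D11, so that they split by code within each arm. Macrophage minus neutrophil types gave -0.88 in A1, -3.52 in A5, 0.36 in A4 and -1.39 in D11, and only A4 had the macrophage types higher. The macrophage mean rests on Mmp12 and Mmp13, since Mmp14 and Mmp19 differed by less than 1 log2 unit. The neutrophil mean is of 2 genes, and its split between A4 and D11 rests mainly on Mmp9. Mmp9 had 0.60 (A1), 4.21 (A5), 0.69 (A4) and 3.76 (D11). Mmp8 had 0.20 (A1), 1.59 (A5), 1.21 (A4) and 1.84 (D11).

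**Figure D3:**
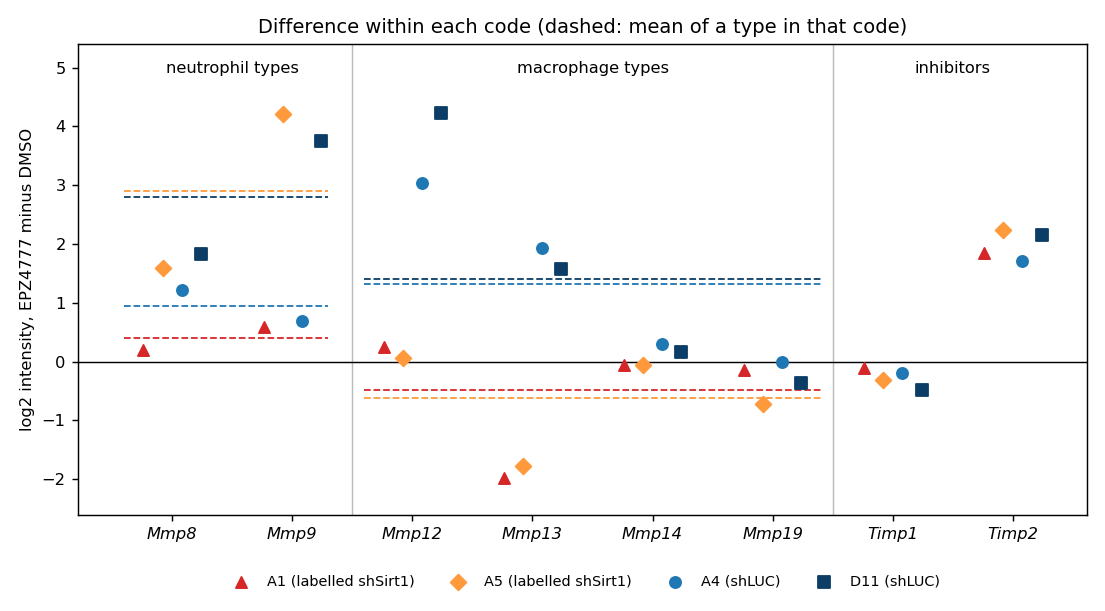
EPZ4777 minus DMSO log2 difference (y axis) of each gene in each of the 4 codes, grouped as neutrophil types, macrophage types and inhibitors, with dashed lines at the mean of a type in a code. The shLUC codes are above the shSirt1 codes for Mmp12 and Mmp13, A5 and D11 are above A1 and A4 for Mmp9, and the 4 points of Timp2 lie between 1.72 and 2.24.

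Marker genes of the 2 cell types were read beside the proteases. Of 12 neutrophil markers, all 12 were positive in every code, where 18.7% of all genes were. Their medians were 3.90 (A1), 2.99 (A5), 1.70 (A4) and 2.77 (D11), and 9 of 12 rose averaged over both hairpins, where 4.88% of all genes did. Within an arm, 1 of 12 passed as higher in cells labelled shSirt1, where 0.396% of all genes passed in either direction. In shLUC cells 4 of 12 did, where 1.62% of all genes passed as higher. A1 had the highest neutrophil marker median together with the lowest Mmp8 difference and the lowest Mmp9 difference of the 4 codes. Its DMSO array had the lowest summed neutrophil markers, at 12038 against 29708 (A4), 34019 (A5) and 40439 (D11). In EPZ4777 the A1 sum was also the lowest, at 81182 against 81350 (A4), 132931 (D11) and 142279 (A5). The A1 and A4 sums in EPZ4777 were close, and a sum weighs the brightest markers most. The part of the low DMSO array in the high A1 median was not tested. Lcn2, whose product in humans forms a complex with MMP9, had 12.39 (A1) and 13.32 (A5) in EPZ4777, against 8.27 and 9.48 in DMSO, in cells labelled shSirt1. In shLUC cells Lcn2 had 12.06 (A4) and 13.44 (D11) in EPZ4777, against 9.16 and 10.20 in DMSO. It was high in all 4 EPZ4777 arrays, including A1 and A4 where Mmp9 stayed low.

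Of 15 macrophage markers, 8 (A1), 6 (A5), 13 (A4) and 13 (D11) were positive, with medians of 0.027, -0.043, 1.21 and 1.87 in that order. Their summed intensity was 1533 to 1659 in EPZ4777 and 1783 to 3300 in DMSO in cells labelled shSirt1, and 9819 to 14217 in EPZ4777 and 5516 to 6728 in DMSO in shLUC cells. The summed neutrophil markers were 81182 to 142279 in EPZ4777 and 12038 to 34019 in DMSO in cells labelled shSirt1, and 81350 to 132931 in EPZ4777 and 29708 to 40439 in DMSO in shLUC cells. In limma, 8 macrophage markers passed as higher in shLUC cells, where 1.62% of all genes did. Averaged over both hairpins, 6 of 15 passed as higher, where 4.88% of all genes did, and 1 as lower, where 1091 of 18193 genes did. In cells labelled shSirt1 the monocyte receptor Ccr2 alone passed, as lower (-2.95 ± 0.28, adjusted p = 0.0385), where 0.396% of all genes passed in either direction. Ccr2 was -1.34 ± 0.28 in shLUC cells (adjusted p = 0.0505). In bulk RNA, fewer cells of a type and less RNA per cell cannot be told apart, and the part of these markers in the protease values was not tested.

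**Figure D4:**
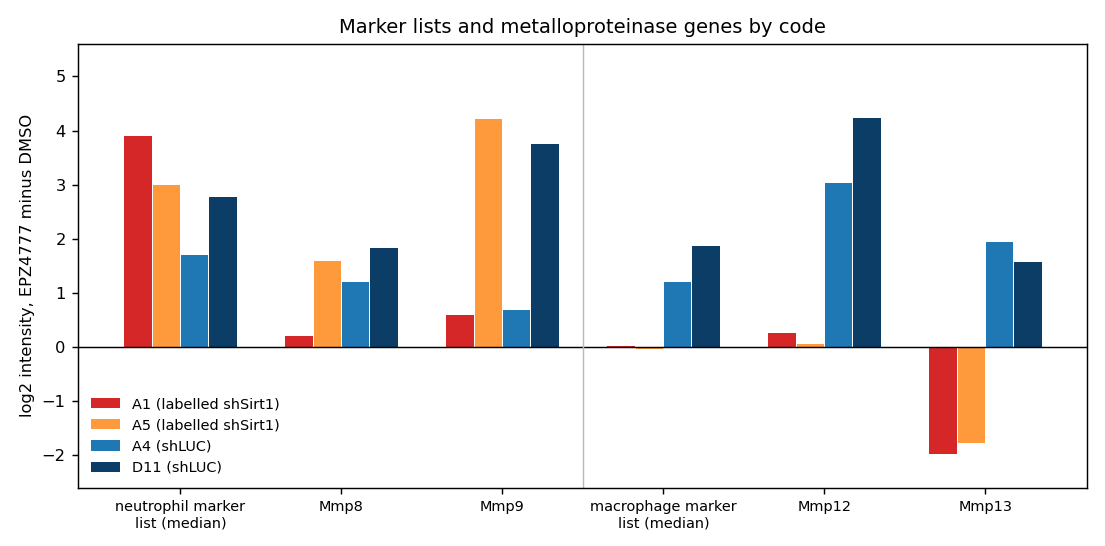
EPZ4777 minus DMSO log2 difference (y axis, bars from 0) by code for the median of 12 neutrophil markers beside Mmp8 and Mmp9, and for the median of 15 macrophage markers beside Mmp12 and Mmp13. The A1 bar is the highest for the neutrophil list at 3.90 and the lowest for Mmp8 at 0.20 and Mmp9 at 0.60. The A1 DMSO array had the lowest summed neutrophil markers, at 12038.

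Cells labelled shSirt1 were also set against shLUC cells, with differences as labelled shSirt1 minus shLUC. In EPZ4777, Mmp12 was lower by the test, with 3.95 and 4.10 in cells labelled shSirt1 against 7.02 and 8.71 in shLUC cells, a difference of -3.84 ± 0.49 (adjusted p = 0.0411). It was the 1 of 8 members that passed as lower, where 0.242% of all genes did. Mmp13 stood at -3.81 ± 0.55 (adjusted p = 0.0575, and 0.0387 with the code as a random block). The Mmp12 call held in 1 of the 8 fits that leave out an array, the one without the EPZ4777 array of A4 (adjusted p = 0.0269), and adjusted p-values in the others ran from 0.0508 to 0.150. All 8 members had a negative difference here, with a median of -0.61 against 0.0071 over all genes. The share of all genes with a negative difference was not counted. In DMSO 7 of the 8 members were negative too. In EPZ4777 Mmp8 was at -2.02 ± 0.90 (adjusted p = 0.402) and Timp2 at -0.88 ± 0.61 (adjusted p = 0.628), neither past the threshold.

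In DMSO, 0 of 8 members passed in limma, and 0% of all genes passed. There 0 of 8 had an unadjusted p under 0.05, against 5.41% of all genes. The 2 largest differences were those of Mmp8 (-1.39 ± 0.90) and Timp2 (-0.99 ± 0.61), both with an adjusted p of 0.904. With the A5 array in DMSO left out, the Mmp8 difference was -2.16 (adjusted p = 0.752), and with both A5 arrays left out it had the same size and an adjusted p of 0.0386. In both cases the shSirt1 DMSO arm is the A1 array alone, and its spread is taken from the other groups. The labelled shSirt1 effect of EPZ4777 minus the shLUC effect had 0 members past the threshold in limma, and 0% of all genes passed. An unadjusted p under 0.05 occurred for 2 of 8 members, against 6.71% of all genes. The difference of effects was -3.47 ± 0.69 for Mmp12 (adjusted p = 0.503, blocked adjusted p = 0.240). For Mmp13 it was -3.63 ± 0.78 (adjusted p = 0.534), and it passed with the block (blocked adjusted p = 0.0247), where 0.011% of all genes passed as lower. For Timp2 the difference of effects was 0.11 ± 0.86, with a 95% interval from -1.92 to 2.14, and for Mmp9 it was 0.18 ± 2.27.

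The neighbours of Mmp8, Mmp12 and Mmp13 gave no such values. The cluster on chromosome 9 holds 10 genes in the order Mmp13, Mmp12, Mmp1b, Mmp3, Mmp1a, Mmp10, Mmp8, Mmp27, Mmp20 and Mmp7, and 9 of them had a row. The 6 measured genes other than the 3 members had differences from -0.12 to 0.51 in the 4 codes, at intensities of 2.43 to 5.47. Mmp1b, Mmp3, Mmp1a and Mmp10, which lie between Mmp12 and Mmp8, were among them. Of 16 other metalloproteinase genes listed, 12 had a row, and 0 of 12 passed in any of the 6 comparisons in limma. An unadjusted p under 0.05 occurred for 1 of them in shLUC cells, against 21.7% of all genes. It occurred for 0 of the 12 in the other 5 comparisons, against 5.41% to 27.4% of all genes. The differences of the 12 ran from -0.22 to 0.36 in cells labelled shSirt1 and from -0.049 to 0.34 in shLUC cells. Mmp2, gelatinase A, and Timp3 were brightest in the A1 DMSO array, where some but not all of the stromal markers were highest. Mmp2 was 5.23 there against at most 5.06 elsewhere, and Timp3 5.49 against at most 4.40. The source of these signals was not tested.

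**Figure D5:**
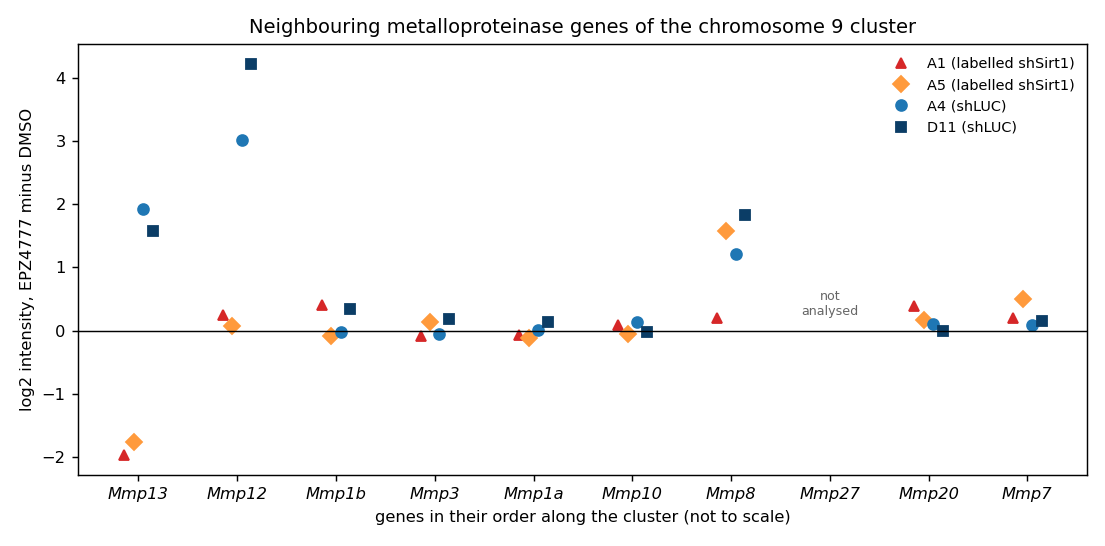
EPZ4777 minus DMSO log2 difference (y axis) of the genes of the metalloproteinase cluster in their order on chromosome 9 (x axis, not to scale), 1 point per code. Mmp13, Mmp12 and Mmp8 have points beyond 1 log2 unit, and the 6 measured genes around them lie between -0.12 and 0.51.

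Lists of genes that act with these proteases were counted in full. Of 7 genes of plasminogen activation, a route by which proenzymes are activated, 0 passed in cells labelled shSirt1 in limma, where 0.396% of all genes did. Of these 7, 3 had an unadjusted p under 0.05 in those cells, against 15.8% of all genes. With the block 1 passed there as higher, against 1.31% of all genes. In shLUC cells 1 passed, Plau, the urokinase gene (1.11 ± 0.23, adjusted p = 0.0481), where 1.62% of all genes passed as higher. All 7 had a positive difference averaged over both hairpins, with a median of 0.25 against 0.0051 over all genes, and Plau passed there too (0.92 ± 0.16). The list also holds the inhibitor genes Serpinb2 and Serpinf2, so the shared sign gives no direction of activation. In shLUC cells Serpinb2 was 2.37 ± 0.81 (adjusted p = 0.147, blocked adjusted p = 0.0363) and Serpinf2 0.074 ± 0.11. Plaur, the urokinase receptor, was 1.02 ± 0.27 on average and passed with the block only (adjusted p = 0.0548, blocked adjusted p = 0.00483). Of 7 partner and docking genes, 3 rose on average: Lcn2 (3.53), Itgam (1.39 ± 0.31) and Itgb2 (0.89 ± 0.20), which encode the chains of the integrin Mac-1. Of 13 ADAM protease genes, 1 rose on average, Adam8 (1.38 ± 0.32), a share near the 4.88% of all genes that rose in that comparison. The median averaged difference was 0.44 for the partner genes and 0.083 for the ADAM genes.

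Of 7 genes for granule proteases, protease inhibitors and the granule peroxidase Mpo, 3 rose on average, where 4.88% of all genes did. All 3 were inhibitors: Stfa3 of the stefin family (3.72 ± 0.79), and Slpi (0.94 ± 0.14) and Serpinb1a (0.63 ± 0.11), which both block neutrophil elastase. The primary granule proteases gave values near 0, with Elane at -0.053 ± 0.16, Prtn3 at -0.045 ± 0.16 and Ctsg at -0.15 ± 0.091. Prtn3 and Ctsg were bright on every array, at 13.14 to 13.98. Whether signal this bright understates a change was not tested. The median of the 7 was -0.038. Of 12 matrix substrates, Col4a2, a collagen of basement membranes, fell by 1.46 in cells labelled shSirt1 (standard error 0.18, adjusted p = 0.0399) and by 0.99 on average, while Eln, elastin, rose by 0.31 on average, and the median of the 12 was -0.30. Col4a2 had 4.59 (A1) and 4.33 (A5) in EPZ4777, against 6.16 and 5.68 in DMSO, in cells labelled shSirt1. The list also holds Col3a1, Col1a2 and Col4a1, which were highest in the A1 array in DMSO (6.92, 6.74 and 6.83), and their part in the median was not tested. Within codes the median of the list was -0.10 (A1), -0.17 (A5), 0.0063 (A4) and -0.12 (D11). Of 4 proprotein convertases, 0 passed in these 3 comparisons in limma and 0 had an unadjusted p under 0.05. Of 5 other metalloproteinase inhibitors 0 passed, and 2, 0 and 1 had an unadjusted p under 0.05 in cells labelled shSirt1, in shLUC cells and averaged. Over all genes these shares were 15.8%, 21.7% and 27.4% in that order. The 1 inhibitor averaged was Reck, which is membrane-anchored, at 1.42 ± 0.38. It passed with the block (adjusted p = 0.0600, blocked adjusted p = 0.0247).

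Of 15 measured AP-1 and ETS family genes, families that bind the AP-1 and PEA3 letters marked in the promoters above, 3 rose on average: Ets1 (1.92 ± 0.21), Fos (1.22 ± 0.18) and Fosb (0.65 ± 0.15), where 4.88% of all genes rose. Fosb was 1.21 ± 0.21 in cells labelled shSirt1 (adjusted p = 0.0781) and 0.085 ± 0.21 in shLUC cells (adjusted p = 0.888). Ets1 and Maf, a large MAF factor of macrophages, rose in shLUC cells (1.94 ± 0.30 and 2.97 ± 0.61), where 1.62% of all genes rose. In cells labelled shSirt1 0 of 15 passed, where 0.396% of all genes did. There 4 had an unadjusted p under 0.05, against 15.8% of all genes. With the block 1 passed as higher, against 1.31% of all genes. The median of the 15 was 0.25 on average.

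Among 299 genes that varied enough over the 8 arrays, those most like Mmp12 by Pearson correlation were C1qb (0.99), Atp6v0d2 (0.99) and Ccl7 (0.98). Those most like Mmp8 were Cybb (0.95), Cd300lb (0.94) and Fpr2 (0.93). The 8 arrays share 4 groups and 4 codes, so these values describe a pattern only. C1qb, a chain of complement C1q made by macrophages, had 3.60 (A1) and 3.83 (A5) in EPZ4777, against 3.84 and 3.87 in DMSO, in cells labelled shSirt1. In shLUC cells C1qb had 7.09 (A4) and 7.89 (D11) in EPZ4777, against 3.87 and 4.45 in DMSO, so that the shLUC EPZ4777 arrays alone were high, as for Mmp12.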

How the data were processed

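Per the labels, total RNA of 8 samples was hybridised to 1 Affymetrix array each. The values the authors deposited are RMA intensity values, per the submitters' processing notes, with no version given, and that they are linear was read from the values. RMA corrects background, normalizes arrays and summarises probes, and it shrinks low signals, so small values understate a change. Log2 was taken with no pseudocount, filter or further scaling. Of 45101 probe sets, 64 controls were left out, 34945 had 1 symbol in the array's annotation, 932 had several and 9160 were not listed. The model, in limma 3.58.1 (R 4.3.3; the package data.table at 1.17.8), had 4 group means over 8 arrays, with 4 residual degrees of freedom, two-sided and Benjamini-Hochberg adjusted. For 2 arrays against 2, the smallest exact permutation p is 0.333.

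Members, gene lists, motifs and tests were chosen with earlier results of these data known, and lists were counted and not tested. Named genes are all members in the EPZ4777 comparisons. Elsewhere they are members that passed in either fit and the 2 largest, and from lists up to 4 passing members with the largest differences, with Sirt1 and Lcn2 added. Plaur, Elane, Prtn3, Ctsg, Reck, Mmp2, Timp3, Col3a1, Dcn, Col1a2, Col4a1, Ccr2, C1qb's array values and Timp2 and Mmp9 in the difference of effects were chosen after their values were seen. Genes were compared for likeness if their SD over the arrays was at least 1. The fit that blocked on code had 2 residual degrees of freedom. Deviations from group means correlated between EPZ4777 and DMSO arrays of a code at 0.378 for shSirt1 and 0.293 for shLUC, and the pairing rests on the codes in the titles. On simulated data (10 draws of EPZ4777 in shLUC cells, with 200 of 18193 genes altered) recovery was 1.4% at a log2 change of 0.5, 60.8% at 1, 93.6% at 2 and 97.2% at 3, with 5.10% false calls. The noise was independent between arrays, with each gene's spread drawn from limma's distribution over all genes. The median standard error over all genes was 0.14. It was 0.13 to 0.18 for Mmp14, Mmp19 and Timp1, and 0.49 to 1.61 for Mmp8, Mmp9, Mmp12, Mmp13 and Timp2. The recoveries do not apply to the latter genes.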

Additional observations from a re-analysis of the deposited data

Results flagged for a closer look

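Mmp13 had opposite signs in the 2 arms, with EPZ4777 below DMSO in both codes labelled shSirt1 and above it in both shLUC codes. The effect in cells labelled shSirt1 minus that in shLUC cells was -3.63 (limma adjusted p = 0.534, and 0.0247 with the code as a block). Mmp14 had opposite signs in the same way on its main probe set, with a difference of -0.29 (limma adjusted p = 0.826, and 0.535 with the block), and its other probe sets did not share the signs. Days in EPZ4777 and hairpin cannot be told apart in either value.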

How the results depend on the processing

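The arrays number 2 per group, which limits every value. The count of members past the threshold was 0 in cells labelled shSirt1 and 2 with the code as replicate block. In shLUC cells it was 1, with 3 under the code as fixed or random replicate block, 2 with the 4 shLUC arrays alone, 2 without code A1 or without code A5 (both chosen after seeing the data, and both leaving 1 array in each arm labelled shSirt1, assumed to vary like the other groups), and 0 with genes under the median level left out, a filter that removes Mmp12, Mmp13, Mmp14 and Timp1. Averaged over both hairpins it was 2, with 3 under the block, 1 under that filter, 1 with a robust variance and 0 without code A5. For the difference of effects it was 0, and 1 with the block. In labelled shSirt1 against shLUC cells it was 0 in DMSO, and 1 without code A5. In EPZ4777 it was 1, with 2 under a trended variance, a random replicate block or an adjusted p under 0.1, and 0 with a robust variance, the same filter, only the arrays compared or without code A1. With each array left out in turn the counts ran from 0 to 1 in shLUC cells, from 0 to 3 averaged, and from 0 to 1 in EPZ4777 between hairpins.

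Some signs turned. Mmp14 in cells labelled shSirt1 was 0.092 with the mean of its probe sets and 0.043 and 0.28 on its other probe sets, and on 1 of these it was -0.082 in shLUC cells and -0.019 averaged. With single arrays left out, Mmp14 in cells labelled shSirt1 ran from -0.17 to 0.063, Mmp8 there from -0.56 (without the A5 array in EPZ4777) to 2.35, Mmp12 there from -0.0094 to 0.33, and averaged Mmp13 from -0.46 to 0.34. The causes were not tested. Other scalings moved the median of all genes by under 0.1 log2, and the split of calls in shLUC cells was 295 higher and 429 lower as deposited, 336 and 264 after quantile normalization, and 284 and 539 with arrays centred on the median. Averaged, it was 888 and 1091, 962 and 793, and 795 and 1445. The type contrast by code has no value without an array, and hairpin comparisons allow no fixed block.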
